A study of Mus musculus with 20 samples.

Results

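The megalin-cubilin apparatus is described here by 8 genes, chosen by name for their known roles, with earlier results of these data known, and read as 8 of the 55822 rows of the gene table: Lrp2, Cubn, Amn, Lrpap1, Dab2, Cltc, Clcn5 and Ocrl. The transcripts were measured by poly(A) RNA sequencing of whole kidneys of male C57BL/6J mice aged 8 weeks. Mice were given 6 daily doses, and the kidneys were taken on day 7. The 2 groups compared were a control group given phosphate-buffered saline (PBS) and a group given puberulic acid at 1 mg per day, with 5 samples each. Puberulic acid is a tropolone acid made by some Penicillium moulds. The labels name both gavage and intraperitoneal injection as routes and do not say which one a given mouse had. No genetic change or other agent is named, and the labels do not state that each sample is 1 animal, so p-values measure only the spread between these samples. The series has 2 further groups of 5, given a normal or a toxic lot of the supplement Choleste-Help at 1000 mg per day; the names of 10 columns do not show which lot they hold, and those columns were not used.

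Megalin, the product of Lrp2, and cubilin, the product of Cubn, are very large receptors at the base of the brush border of the proximal tubule. They bind albumin, vitamin carrier proteins, hormones and some drugs from the filtrate and carry them into the cell through clathrin-coated pits. Cubilin has no membrane anchor of its own and needs amnionless, encoded by Amn, to reach the surface. The receptor-associated protein, encoded by Lrpap1, is a chaperone that keeps megalin free of ligand in the endoplasmic reticulum. Dab2 links the tail of megalin to clathrin, Cltc encodes the clathrin heavy chain, Clcn5 encodes a chloride-proton exchanger of endosomes, and Ocrl encodes a phosphoinositide phosphatase that acts on the way back to the surface. Loss of Clcn5 or Ocrl function in people gives Dent disease or Lowe syndrome, in which protein is lost in the urine.

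The receptors, the anchor of cubilin and the chaperone fell on the TMM scale, and Cltc, Ocrl and Clcn5 did not pass the test. Lrp2 was 9.16-fold lower with puberulic acid, Cubn 7.96-fold, Lrpap1 4.79-fold and Amn 3.17-fold. Dab2 fell less, to 63.3% of control. Cltc, Ocrl and Clcn5 were at 94.1%, 90.5% and 117.4% of control. In all, 5 of the 8 members were called at an adjusted p under 0.05 by edgeR's quasi-likelihood test, where 65.3% of the 16266 genes tested were called. All 5 were lower, where 31.1% of genes were called lower and 34.2% higher. At least 4-fold lower were 3 of the 8, against 3.78% of the genes tested. For 5 of the 8 every treated sample lay outside the control range on the CPM scale, as did 50.1% of all genes tested.

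The size of these changes depends on how libraries are scaled, so each value below is a count relative to the library total (CPM) after trimmed mean of M-values (TMM) scaling unless total counts are named. Totals were 18409877 to 24705587 estimated counts a sample. The TMM factors of the controls lay at 0.827 to 0.848 and those of the treated samples at 1.17 to 1.26, and the median gene tested had a log2 fold change of 0.05. With total counts in place of TMM factors the median gene moved to 0.56, and 15.5% of genes were called lower and 56.4% higher. Under that scaling 4 members were called lower (Lrp2, Cubn, Amn and Lrpap1) and 3 higher (Clcn5, Ocrl and Cltc), while Dab2 was not called.

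Marker transcripts of several cell types changed alongside the members. Their calls are read against all genes tested, of which 34.2% were called higher and 31.1% lower. Summed CPM over 17 proximal tubule markers that leave out the members ran from 26140 to 32720 in controls and from 2236 to 4337 with puberulic acid. All 17 were called lower, with a median log2 fold change of -3.19. The 9 injured tubule markers, Havcr1 among them, were all called higher, and their sum ran from 907 to 1520 CPM in the control samples and from 14670 to 24900 CPM in the treated samples. Macrophage markers, 6 of 8 called higher, summed to between 85.9 and 170.5 CPM in the control samples and between 207.1 and 620.4 CPM in the treated samples. Fibroblast markers, 6 of 7 called higher, summed to between 128.5 and 191.7 CPM and between 588.3 and 2190.0 CPM. Only 1 of 6 podocyte and 1 of 6 endothelial markers was called, each lower, and 8 of 10 loop, distal tubule and duct markers were called lower. With total counts 2 podocyte markers were called higher, no endothelial marker was called, and 5 of the loop to duct markers were lower and 1 higher. Under that scaling 56.4% of all genes tested were called higher and 15.5% lower. No marker of these 7 lists was at 0 in all samples. In whole-kidney RNA, fewer proximal tubule cells and less RNA of a gene per cell cannot be told apart. The part of any shift between cell types in the results below was not tested.

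Puberulic acid replicate 1 lay nearest the controls among the treated samples for Lrp2, Cubn, Dab2 and Lrpap1. Its proximal tubule markers summed to 4337 CPM against 2236 to 2503 in the other 4. Its injured tubule markers summed to 14670 against 17010 to 24900, its macrophage markers to 207.1 against 388.6 to 620.4, and its fibroblast markers to 588.3 against 798.1 to 2190.0. Its loop, distal tubule and duct markers summed to 6623 against 3308 to 4214, above the highest control (6388). By the Dixon criterion its proximal tubule sum and its loop to duct sum stood apart from the other 4. Without it 5 members were called, where 11108 of the 16589 genes tested were called. The log2 fold changes of these members were -3.48 for Lrp2, -3.18 for Cubn, -1.69 for Amn, -0.76 for Dab2 and -2.34 for Lrpap1.

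**Figure D1:**
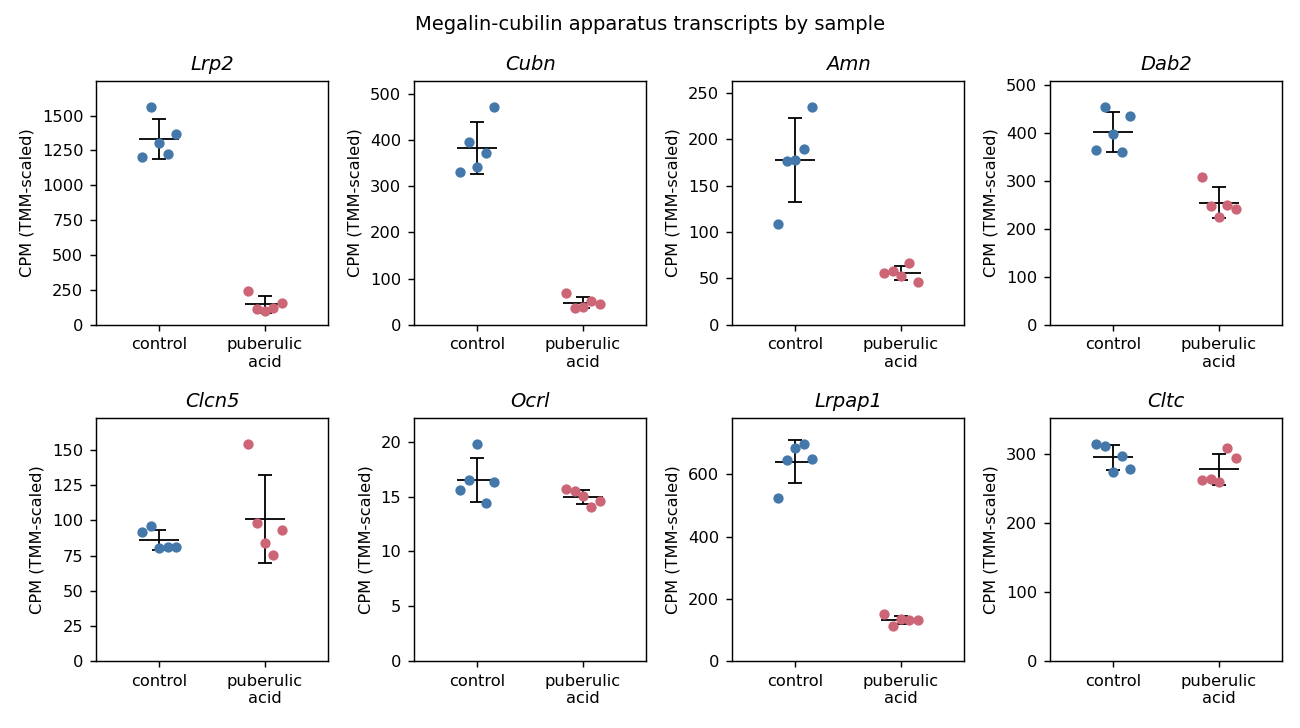
Levels of the 8 members in each sample, in CPM with TMM scaling on a linear axis from 0, for 5 control (blue) and 5 puberulic acid (red) samples; black marks are the mean and SD. Lrp2, Cubn, Amn, Lrpap1 and Dab2 show no overlap between the groups, and Clcn5 is spread by 1 puberulic acid sample at 154.3 CPM.

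Lrp2 (ENSMUSG00000027070) was at 1204, 1560.0, 1302, 1224 and 1368 CPM in control replicates 1 to 5. In puberulic acid replicates 1 to 5 it was at 242.0, 109.7, 96.2, 120.7 and 157.9 CPM. The groups were far apart, and replicate 1 was the highest of the treated samples. The means were 1332 ± 144 and 145.3 ± 58.7 CPM (SD, n = 5 per group), and the log2 fold change -3.20 ± 0.24 (SE) had an adjusted p of 4.01e-07. The value lay next to the median of the 17 proximal tubule markers, -3.19, whose range ran from -6.76 for Slc22a8, an organic anion transporter, to -1.66 for Aqp1, a water channel.

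Cubn (ENSMUSG00000026726) was at 329.6, 395.4, 341.8, 371.2 and 471.0 CPM in control replicates 1 to 5. With puberulic acid it was at 68.3, 37.1, 38.6, 51.6 and 44.2 CPM. Replicate 1 was again the highest treated sample, far below the lowest control. The log2 fold change was -2.99 ± 0.18 (SE, adjusted p = 8.08e-08), from 381.8 ± 56.1 to 48.0 ± 12.7 CPM (SD, n = 5 per group). Cubilin binds the vitamin B12 carrier complex and albumin, and works with megalin in the same pits.

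Amn (ENSMUSG00000021278), the anchor of cubilin, fell less than the receptor it carries. Control replicates 1 to 5 had 108.5, 176.4, 177.4, 190.1 and 234.8 CPM. Puberulic acid replicates 1 to 5 had 56.2, 57.7, 53.0, 66.3 and 46.6 CPM. The treated samples lay close together, while the controls spread over more than 2-fold with replicate 1 the lowest. The log2 fold change was -1.67 ± 0.18 (SE, adjusted p = 5.92e-06), from 177.4 ± 45.3 to 55.9 ± 7.17 CPM (SD, n = 5 per group).

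Lrpap1 (ENSMUSG00000029103), the chaperone, is made by many cell types. It was at 523.1, 644.2, 683.8, 697.2 and 648.6 CPM in control replicates 1 to 5. With puberulic acid it was at 152.3, 114.4, 135.0, 133.5 and 132.0 CPM. The 2 ranges were far apart and narrow, and this gene had the smallest adjusted p of the 8 (1.67e-08). Its log2 fold change was -2.26 ± 0.11 (SE). The means were 639.4 ± 68.9 and 133.4 ± 13.5 CPM (SD, n = 5 per group).

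Lrp2, Cubn, Amn and Lrpap1 are the members that fell under every scaling tried, so the 250 bases before their annotated starts are shown, as a description of regions that share this pattern. The sequences come from RefSeq on GRCm38.p6, an older build than the GRCm39 named in the submitters' processing notes, and all 8 members had an entry. Capitals mark matches, on either strand, to GTTAAT (half-site of HNF1 factors), CAAAGTCCA (an HNF4 core), TCACGTG (an E-box of the TFEB type) or GGGCGG (the GC box of SP1). In the 4 windows shown no match overlapped another.
Lrp2, chr2:69586030-69586279, minus strand: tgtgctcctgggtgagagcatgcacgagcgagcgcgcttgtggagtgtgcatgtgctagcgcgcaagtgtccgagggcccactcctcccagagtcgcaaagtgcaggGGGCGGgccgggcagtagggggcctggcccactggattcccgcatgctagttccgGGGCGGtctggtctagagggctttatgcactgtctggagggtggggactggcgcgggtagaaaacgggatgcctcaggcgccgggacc
Cubn, chr2:13491877-13492126, minus strand: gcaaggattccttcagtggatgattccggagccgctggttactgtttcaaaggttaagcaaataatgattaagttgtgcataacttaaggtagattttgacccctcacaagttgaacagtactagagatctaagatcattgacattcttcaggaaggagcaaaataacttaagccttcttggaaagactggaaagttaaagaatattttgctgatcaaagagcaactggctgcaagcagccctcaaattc
Amn, chr12:111270846-111271095, plus strand: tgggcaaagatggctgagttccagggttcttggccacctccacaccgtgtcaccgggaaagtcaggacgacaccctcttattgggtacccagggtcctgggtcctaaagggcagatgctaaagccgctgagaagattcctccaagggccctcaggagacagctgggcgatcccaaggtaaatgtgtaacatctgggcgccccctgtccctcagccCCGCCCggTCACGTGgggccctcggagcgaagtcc
Lrpap1, chr5:35105700-35105949, minus strand: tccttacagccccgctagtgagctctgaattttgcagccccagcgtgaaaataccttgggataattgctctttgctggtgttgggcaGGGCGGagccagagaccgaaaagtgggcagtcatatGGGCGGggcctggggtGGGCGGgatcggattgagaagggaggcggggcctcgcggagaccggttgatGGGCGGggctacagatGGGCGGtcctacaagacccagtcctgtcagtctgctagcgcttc

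GGGCGG was found 2 times before Lrp2, 1 time before Amn and 5 times before Lrpap1, and 32.7% of 32851 promoters of this length held it. TCACGTG was found before Amn alone among the 8 members, and 3.13% of promoters held it. The Cubn window, with 39.6% G and C against 66.4% for Lrp2, held none of these letters. GTTAAT was found once, before the second of 2 starts of Dab2, and CAAAGTCCA before no member; 6.43% and 0.384% of promoters held them. Of the 3 members that were not called, Ocrl had 2 GGGCGG matches, Clcn5 had 1 before the first of its 2 starts, and Cltc had none.

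Dab2 (ENSMUSG00000022150), the adaptor, was at 364.2, 453.3, 397.8, 359.4 and 434.3 CPM in control replicates 1 to 5. With puberulic acid it was at 308.4, 248.3, 224.6, 249.3 and 240.5 CPM. The ranges did not overlap, though treated replicate 1 came near the lowest control. The log2 fold change was -0.66 ± 0.11 (SE, adjusted p = 0.000166), from 401.8 ± 41.6 to 254.2 ± 31.9 CPM (SD, n = 5 per group). With total counts it was -0.15 (adjusted p = 0.203) and the ranges overlapped, so whether Dab2 fell depends on the scaling. Macrophages and fibroblasts also express Dab2, and the share of its RNA from cells other than the proximal tubule was not tested.

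Cltc (ENSMUSG00000047126), the clathrin heavy chain, is used by nearly every cell. It was at 315.2, 311.5, 275.1, 297.7 and 279.2 CPM in control replicates 1 to 5. In the treated replicates it was at 263.5, 264.1, 259.2, 309.0 and 295.1 CPM. The ranges overlapped, and the log2 fold change was -0.09 with a 95% interval of -0.27 to 0.09 (adjusted p = 0.364). With total counts it was 0.42 (adjusted p = 0.00076), the opposite direction.

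Ocrl (ENSMUSG00000001173), the lipid phosphatase, was the member with the fewest counts, 231 to 455 a library. Control replicates 1 to 5 had 15.6, 16.5, 19.8, 14.4 and 16.4 CPM, and puberulic acid replicates 1 to 5 had 15.7, 15.5, 15.0, 14.02 and 14.6 CPM. The groups overlapped, and the log2 fold change was -0.14 with a 95% interval of -0.37 to 0.08 (adjusted p = 0.238). Total counts gave 0.37 (adjusted p = 0.00884).

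Clcn5 (ENSMUSG00000004317), the endosomal exchanger, was at 92.1, 95.9, 80.2, 80.8 and 81.4 CPM in control replicates 1 to 5. With puberulic acid it was at 154.3, 98.4, 83.8, 75.6 and 93.3 CPM. Only treated replicate 1 stood well above the controls, and replicate 4 was below all of them. The log2 fold change was 0.23 with a 95% interval of -0.14 to 0.60 (adjusted p = 0.246), and 0.005 without replicate 1. Total counts gave 0.74 (adjusted p = 0.00172), and 0.55 (adjusted p = 0.000467) without replicate 1 as well.

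**Figure D2:**
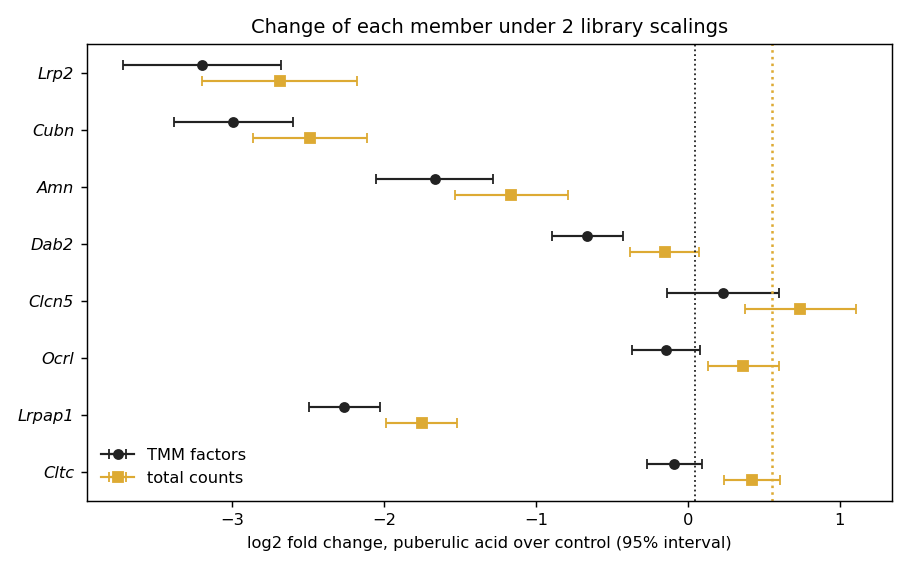
Log2 fold change of each member, puberulic acid over control, with 95% intervals, from TMM factors (black circles) and total counts (yellow squares); dotted lines mark the median gene tested under each, 0.05 and 0.56. Lrp2, Cubn, Amn and Lrpap1 are below 0 under both, and Ocrl and Cltc change sign between them.

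A ratio of 2 transcripts within a sample does not depend on the scaling, apart from the small value added to each, and shows whether they changed unequally. The 7 other members were each set against Lrp2, and Amn against Cubn. Differences of the mean log2 ratio were tested by exact two-sided permutation of the samples, with adjustment over the 8 ratios; 7 of them share Lrp2 and are not independent.

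Cubn and Lrp2 were the only pair whose ratio did not pass. Its mean was -1.81 ± 0.18 in controls and -1.54 ± 0.28 with puberulic acid (SD, n = 5 per group). The difference of 0.26 did not pass, and the ranges overlapped (exact permutation p = 0.119, adjusted p = 0.119). A p of that size does not show that the 2 receptors moved equally.

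The Dab2 to Lrp2 ratio was -1.78 to -1.65 in the 5 controls, the tightest of the 8 ratios there. With puberulic acid it was 0.35 to 1.22, so that Dab2 counts were 0.291 to 0.318 times those of Lrp2 in controls and 1.27 to 2.33 times in treated samples. The difference was 2.61, a 6.09-fold shift (exact permutation p = 0.00794, the smallest this design allows, adjusted p = 0.00907). Differences with the same exact permutation p and adjusted p, and no overlap, were found for Clcn5 (3.46), Cltc (3.18), Ocrl (3.14), Amn (1.64) and Lrpap1 (1.01), each relative to Lrp2. The Cltc to Lrp2 ratio lay between -2.32 and -1.93 in controls and between 0.12 and 1.43 in treated samples.

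Amn rose relative to Cubn, its partner. The log2 ratio ran from -1.60 to -0.95 in the control samples and from -0.28 to 0.63 in the treated samples, a difference of 1.38 or 2.60-fold (exact permutation p = 0.00794, adjusted p = 0.00907). The lowest treated value was that of replicate 1. The lowest control value was that of control replicate 1, which also had the lowest Amn level of the controls.

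**Figure D3:**
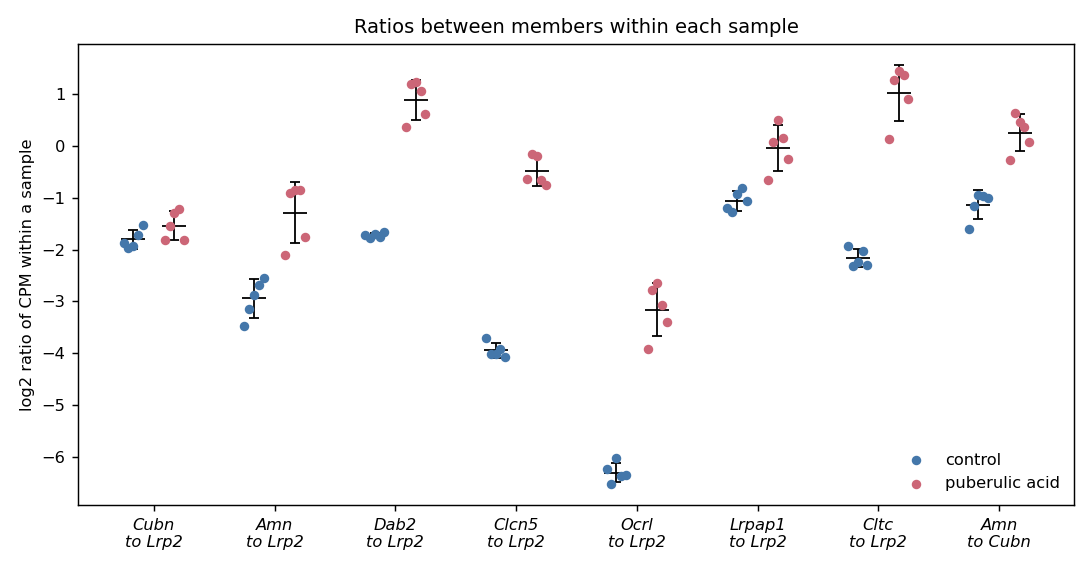
Log2 ratio of CPM between 2 members within each sample, for 5 control (blue) and 5 puberulic acid (red) samples; black marks are the mean and SD. The groups overlap only for Cubn to Lrp2, and the Dab2 to Lrp2 ratio lies at -1.78 to -1.65 in controls and at 0.35 to 1.22 in treated samples.

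Per length, the order of the members changed. Levels were divided by the longest coding transcript in GENCODE M21, from 1701 bases for Amn to 15460 for Lrp2, which need not be the isoform the kidney uses. In controls Lrpap1 was highest at 214.5 ± 23.1 CPM per kb, followed by Amn (104 ± 26.6), Dab2 (86.2 ± 8.93), Lrp2 (86.1 ± 9.29), Cltc (45.4 ± 2.80), Cubn (33.9 ± 4.98), Clcn5 (10.3 ± 0.877) and Ocrl (3.15 ± 0.382; SD, n = 5 throughout). Of neighbours in that order, the ranges of Amn and Dab2 and of Dab2 and Lrp2 overlapped. With puberulic acid the order was Dab2 (54.5 ± 6.84), Lrpap1 (44.8 ± 4.52), Cltc (42.7 ± 3.44), Amn (32.9 ± 4.22), Clcn5 (12.1 ± 3.70), Lrp2 (9.40 ± 3.80), Cubn (4.26 ± 1.13) and Ocrl (2.85 ± 0.126). Here Dab2 and Lrpap1, Lrpap1 and Cltc, and Clcn5 and Lrp2 overlapped. Lrp2 was the fourth of the 8 in controls and the sixth with puberulic acid.

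The genes with the pattern closest to a member were found by the root mean square difference of log2(CPM + 1), relative to the control mean of each gene, over the 10 samples and 9827 other genes at 10 CPM or more, passing over genes with no proper name. Closest to Lrp2 of the named genes were Acsm1, an acyl-CoA synthetase (0.141), Sord, sorbitol dehydrogenase (0.180), and Upb1, an enzyme of pyrimidine breakdown (0.181); 1 unnamed gene lay between Acsm1 and Sord. Closest to Cubn were Fah, an enzyme of tyrosine breakdown (0.145), Tst, a sulfurtransferase (0.182), and Slc22a18, a transporter (0.188). For comparison, Lrp2 and Cubn differed from each other by 0.286 on this measure. Closest to Amn were Tecr, an enzyme of fatty acid elongation (0.145), Myo15b, a myosin-like gene (0.175), and Nme3, a nucleoside diphosphate kinase (0.175). Closest to Dab2 were Agtrap, which encodes a protein bound to the angiotensin receptor (0.0624), Hoxd9, a homeobox gene (0.0886), and Tbc1d10a, a Rab GTPase activator (0.0901). Among the members themselves, Ocrl and Cltc were the closest pair (0.181) and Lrp2 and Clcn5 the farthest (2.45).

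The other genes of the pathway are read against the shares over all genes tested, 34.2% called higher and 31.1% lower with TMM scaling, and 56.4% and 15.5% with total counts. Of 11 tested genes in the list of megalin relatives and sorting receptors, 4 were called higher and 4 lower, with a median log2 fold change of -0.19 beside 0.05 for all genes tested, so that both shares were near those of all genes. Lrp1, a broad scavenger receptor, rose from 40.1 ± 11.5 to 81.8 ± 33.8 CPM (SD, n = 5 per group; log2 fold change 1.03, adjusted p = 0.0085), with ranges that overlapped. Lrp8, a reelin receptor, rose from 0.989 ± 0.248 to 9.43 ± 2.75 CPM (3.25, adjusted p = 7.95e-07). Lrp4, a receptor of the neuromuscular junction that the kidney also makes, fell by 1.36 and Lrp6, a Wnt coreceptor, fell by 0.56 (adjusted p = 8.89e-05 and 0.00395). With total counts Lrp6 was not called (-0.05, adjusted p = 0.748), and 5 genes of the list were higher and 1 lower.

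Of the 9 other uptake receptors, 3 were called higher and 4 lower (median -0.23), and 3 and 2 with total counts, beside 34.2% and 31.1% of all genes, and 56.4% and 15.5% with total counts. Fcgrt, the receptor that rescues albumin and IgG, fell from 268.4 ± 45.1 to 96.4 ± 15.0 CPM (SD, n = 5 per group; log2 fold change -1.48, adjusted p = 2.43e-06). Folr1, the folate receptor, fell from 241.7 ± 20.1 to 103.2 ± 33.5 CPM (-1.23, adjusted p = 7.23e-05). Both also fell with total counts, by 0.97 and by 0.72. Havcr1, the injury marker KIM-1 that binds dead cells, was in this list too and rose from 1.99 ± 0.372 to 1219 ± 114 CPM (SD, n = 5 per group). Scarb1, the HDL receptor, rose from 14.6 ± 1.73 to 31.0 ± 4.13 CPM (1.09, adjusted p = 6.97e-06).

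Of 12 clathrin adaptors 3 were called higher and 3 lower (median 0.10), and 10 and 1 with total counts. Over all genes tested the shares were 34.2% and 31.1%, so both counts are below them with TMM scaling. With total counts they were 56.4% and 15.5%, and the adaptors had more higher and fewer lower calls than that. Ap2m1, the cargo-binding subunit of AP-2, fell from 313.4 ± 24.2 to 193.0 ± 8.59 CPM (SD, n = 5 per group; log2 fold change -0.70, adjusted p = 1.02e-05), which total counts made -0.19 (adjusted p = 0.051). Myo6, the motor that draws coated vesicles along microvilli and binds Dab2, fell by 1.02 (adjusted p = 5.38e-06). Arrb2, an arrestin, rose by 1.39 (adjusted p = 0.000181).

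Of 24 coat and scission genes 12 were called higher and 5 lower (median 0.29), beside 34.2% and 31.1% of all genes tested. With total counts 19 were higher and 2 lower, beside 56.4% and 15.5%. The 2 clathrin light chains went opposite ways on the TMM scale. Clta rose from 158.7 ± 6.97 to 195.7 ± 17.7 CPM (0.30, adjusted p = 0.00609), and Cltb fell from 115.9 ± 10.9 to 85.6 ± 3.05 CPM (-0.44, adjusted p = 0.000444; SD, n = 5 per group). With total counts Cltb was not called (0.07, adjusted p = 0.470), so its direction depends on scaling. Synj2, a phosphatase of coat removal, rose by 2.04 and Amph, amphiphysin, by 1.96, while Dnajc6, an uncoating chaperone, fell by 1.82 and Epn1, epsin, fell by 1.09 (adjusted p = 6.43e-05, 0.000147, 7.38e-05 and 6.03e-06).

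Of 15 genes of phosphoinositide turnover and partners of OCRL, 5 were called higher and 5 lower (median -0.02), and 10 and 3 with total counts. These shares are near those of all genes tested, 34.2% and 31.1%, and 56.4% and 15.5% with total counts. Inpp5b, the closest relative of Ocrl, fell from 73.4 ± 9.12 to 38.8 ± 5.54 CPM (SD, n = 5 per group; log2 fold change -0.92, adjusted p = 2.79e-05), and also with total counts (-0.41, adjusted p = 0.0127). Appl2, an endosomal adaptor, fell by 1.06, while Appl1, also in this list, rose by 0.56 (adjusted p = 2.41e-05 and 0.00125). Pip5k1a, a kinase that makes the lipid that OCRL breaks down, rose by 1.46, and Pikfyve, a kinase of late endosomes, rose by 0.72 (adjusted p = 5.09e-07 and 4.94e-05).

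Genes of endosomal acidification were called lower more often than the 31.1% of all genes tested on the TMM scale, a count and not a test of the lists. Of 5 endosomal chloride transporter genes 4 were called lower and none higher (median -0.57). Clcn3 fell from 140.0 ± 16.1 to 66.9 ± 7.80 CPM (SD, n = 5 per group; log2 fold change -1.07, adjusted p = 3.83e-06), and Clcn4 from 97.7 ± 12.4 to 66.5 ± 6.93 CPM (-0.56, adjusted p = 0.000571), a call that total counts ended (-0.04, adjusted p = 0.720). Clcn7, the lysosomal exchanger, fell by 0.69 (adjusted p = 3.54e-05), which total counts also ended (adjusted p = 0.0747). With total counts 1 of the 5 was called higher and 1, Clcn3, lower. Of 22 genes of the vacuolar proton pump 17 were lower and 1 higher (median -0.51), or 2 higher without control replicate 2, and with total counts 5 were lower and 6 higher (median -0.002), beside 15.5% and 56.4% of all genes. Atp6v1c2 and Atp6v1b1, subunits typical of intercalated cells, fell by 1.54 and by 1.18, while Atp6v1c1, the widespread form of the first, rose by 0.76 (adjusted p = 0.000119, 7.92e-05 and 0.000114).

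The list of early and recycling endosome genes held 8 higher and 13 lower of 29 (median -0.18), and 18 and 3 with total counts. Over all genes tested the shares were 34.2% and 31.1%, and 56.4% and 15.5% with total counts. Rab11fip3, a recycling effector, fell from 318.0 ± 23.9 to 96.3 ± 40.1 CPM (-1.72, adjusted p = 2.48e-05), and Ehd3, a recycling ATPase, fell from 38.6 ± 9.84 to 17.9 ± 6.86 CPM (adjusted p = 0.00352; SD, n = 5 per group). Total counts ended the Ehd3 call (adjusted p = 0.0765). Snx5, of the sorting complex for retrieval, rose by 0.93 and Ehd4, of the same family as Ehd3, rose by 0.93 (adjusted p = 5.77e-07 and 1.88e-05).

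The scaffold of the brush border had the lowest median of the 10 pathway lists, with 9 of 12 genes lower and 1 higher (median -0.91), beside 31.1% and 34.2% of all genes tested. With total counts 7 were lower and 3 higher, beside 15.5% and 56.4%. Pdzk1, which tethers apical transporters, fell from 1299 ± 123 to 212.1 ± 69.2 CPM (SD, n = 5 per group; log2 fold change -2.61, adjusted p = 3.37e-07). Ush1c, which links microvilli tips, fell by 1.66, and Cobl, an actin nucleator, rose by 0.63 (adjusted p = 8.63e-08 and 0.000206).

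**Figure D4:**
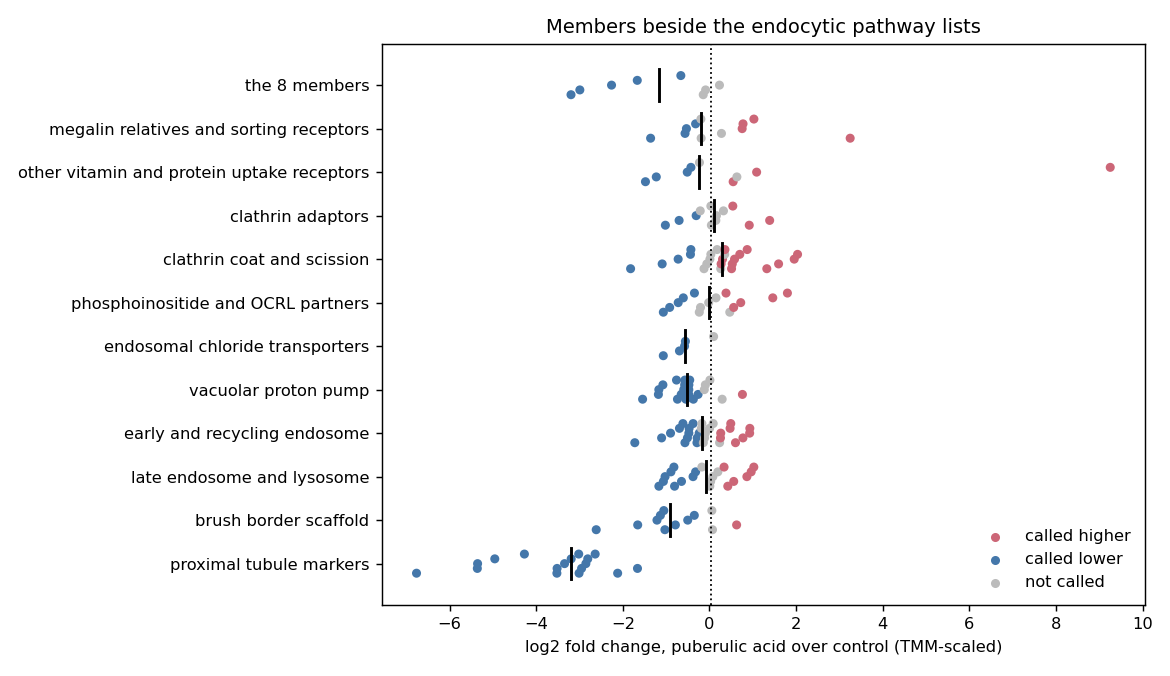
Log2 fold change with TMM scaling of each tested gene in the 8 members, the 10 pathway lists and the proximal tubule markers; red is called higher, blue called lower and grey not called, short bars are list medians and the dotted line is the median of all genes tested. The members spread from -3.20 to 0.23, the proximal tubule markers are all below 0, and the far point in the uptake receptors is Havcr1.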

How the data were processed

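The deposited table holds estimated counts per gene; per the submitters' processing notes, the authors named fastp 0.22.0, FastQC 0.12.1, MultiQC 1.28, Salmon 1.10.3, DESeq2 and the build GRCm39. The annotation, the summing to genes and any filter are not given in the sources used here. Columns were assigned by name, and 10 columns whose names match no sample were not used. Symbols were found for 51344 of 55822 identifiers.

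Counts were rounded, filtered with filterByExpr, scaled with TMM factors and tested with the quasi-likelihood test of edgeR 4.0.16 (limma 3.58.1, R 4.3.3) on 5 control and 5 puberulic acid samples, with Benjamini-Hochberg adjustment over 16266 genes and calls at 0.05. The fit was tested on simulated data. Standard errors were derived from the fold change and its F statistic. Ratios used a pseudocount of 0.5 CPM. Other steps ran in scipy 1.17.1, numpy 2.4.6 and pandas 2.3.3.

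The members and lists were chosen with earlier results of these data known. Besides the members and 11 partners, each pathway list names up to 2 called genes with the largest change in each direction, at a mean of 1 CPM or more; a few genes that this rule names are not reported here. The gene lists hold 160 pathway genes. No 2 libraries of a group agreed within sampling noise (chi-square per degree of freedom at least 12.7). Alternatives were RLE and upper-quartile factors, total counts, other filters, DESeq2 1.42.0, a robust fit, leaving out abundant genes, a replicate block and leaving out each sample; for ratios, other pseudocounts and medians. Counting error is small at 231 counts or more; reads carry no stated molecular identifiers.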

Additional observations from a re-analysis of the deposited data

Results flagged for a closer look

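Within each group of 5, the member levels, ratios, marker sums and levels of the named genes were searched for a sample whose distance from the next one is above 0.71 of the spread of the 5, Dixon's limit; 10 of 120 sets held one, where chance gives about 5%. No member level or ratio was among them. Clcn5 came close, with puberulic acid replicate 1 at 154.3 CPM against 75.6 to 98.4 in the other treated samples.

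Puberulic acid replicate 1 was that sample in 8 of the 10. Its proximal tubule markers summed to 4337 CPM against 2236 to 2503 in the other 4 treated samples (0.873), and its loop, distal tubule and duct markers to 6623 CPM against 3308 to 4214 (0.727). Folr1 was at 161.9 CPM against 78.0 to 95.4 (0.793), Fcgrt at 122.7 against 85.4 to 93.4 (0.786), and Rab11fip3 at 166.5 against 69.6 to 90.7 (0.782). Pdzk1 was at 331.6 CPM against 159.4 to 207.6 (0.720), Atp6v1c2 at 19.1 against 7.67 to 10.6 (0.740), and Atp6v1b1 at 70.3 against 33.3 to 43.7 (0.717). In all 8 the sample was the highest of the treated group. Why this sample differs was not tested.

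The other 2 were controls. Atp6v1c1 was at 97.1 CPM in control replicate 2 against 73.4 to 79.0 in the other controls (0.765), and Atp6v1c2 at 40.1 CPM in control replicate 5 against 27.6 to 30.9 (0.738).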

How the results depend on the processing

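Lrp2, Cubn, Amn and Lrpap1 kept their direction and an adjusted p under 0.05 in all alternatives run, with log2 fold changes of -3.48 to -2.69, -3.18 to -2.49, -1.81 to -1.16 and -2.34 to -1.75. Library scaling decided the other 4. With total counts the values were -0.15 for Dab2 (adjusted p = 0.203), 0.74 for Clcn5, 0.37 for Ocrl and 0.42 for Cltc, so that 3 members were called higher. With total counts and without puberulic acid replicate 1, chosen after seeing the data, all 8 members were called, 3 of them higher. In that setting 12148 of 16589 genes tested were called, and the median gene was at 0.57. Clcn5 was at 0.55, Ocrl at 0.35 and Cltc at 0.45, and Dab2 was at -0.23 (adjusted p = 0.0405). Cltb, a partner and no member, turned to 0.072 and 0.059 in these 2 settings and was not called (adjusted p = 0.470 and 0.565). Upper-quartile factors gave 0.008 for Cltc (adjusted p = 0.933). The number of genes called ran from 9960 of 14832 tested to 12148 of 16589, against 10622 of 16266 as reported. With no filter 11844 of 30782 were called. Leaving out any 1 sample left 5 members called, all lower, where 10104 to 11108 genes were called.

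The ratio tests kept their calls with other pseudocounts and without any 1 sample. With differences of medians, 2 groups of 5 that are wholly apart can reach no exact permutation p below 0.0476, so that test could not keep the 7 calls once adjusted and says nothing about their stability. The differences were 1.95, 2.77, 3.37, 3.28, 1.14 and 3.51 for Amn, Dab2, Clcn5, Ocrl, Lrpap1 and Cltc relative to Lrp2, and 1.36 for Amn relative to Cubn, each with an adjusted exact permutation p of 0.0544.

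Same-numbered samples are not stated to be related, and their deviations correlated at -0.172 to 0.039. With the replicate block 10325 genes and the same 5 members were called. Paired sign-flip tests of the ratios cannot go below p = 0.0625, and the differences of 1.64, 2.61, 3.46, 3.14, 1.01, 3.18 and 1.38, in the order above, had an adjusted exact p of 0.0714, which likewise says nothing about their stability.

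Every member had 231 or more estimated counts in each library.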

Other observations

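Late endosomes and lysosomes are where receptor cargo is broken down. Of 20 of their genes, 6 were called higher and 9 lower with TMM scaling (median log2 fold change -0.08), and 11 and 5 with total counts. The shares over all genes tested were 34.2% and 31.1%, and 56.4% and 15.5% with total counts. Ctsd, cathepsin D, rose from 644.2 ± 79.6 to 1256 ± 209 CPM (SD, n = 5 per group; log2 fold change 0.96, adjusted p = 4.34e-05). Gla, alpha-galactosidase A, rose from 6.92 ± 1.14 to 14.1 ± 2.81 CPM (1.03, adjusted p = 0.00022). Tpp1, a lysosomal peptidase, fell, with 172.8 to 231.4 CPM in control samples and 81.6 to 117.9 CPM in treated samples (-1.06, adjusted p = 1.28e-05). These 3 kept their direction with total counts, at 1.47, 1.53 and -0.56. Macrophages hold many lysosomes, and their summed markers were 85.9 to 170.5 CPM in controls and 207.1 to 620.4 CPM with puberulic acid; their part in these values was not tested.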
